A study of Mus musculus with 6 samples.

Results

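The ATF4 genes of the integrated stress response described here are Atf4, Atf3, Ddit3, Trib3, Ppp1r15a, Asns, Psat1, Slc7a11, Chac1 and Sesn2. They were chosen by gene symbol, by a rule that uses no measured value but was written with earlier results of these data known. The 10 symbols matched 11 of the 54532 gene identifiers counted, because Ddit3 stands there under a pair of identifiers. RNA was sequenced from whole epididymal white adipose tissue, a visceral fat depot, of mice on a high-fat diet for 16 weeks. The 3 knockout libraries came from PD-1fl/fl Lyz2-Cre mice, in which Cre from the Lyz2 locus deletes the inhibitory receptor PD-1 (gene Pdcd1) in myeloid cells, macrophages among them. The 3 control libraries came from littermates that were PD-1fl/fl without Cre, so that the floxed allele and the diet were shared by both groups. Age and sex of the mice were not stated in the sources read here, and the comparison asks how tissue gene expression differs when myeloid cells lack PD-1.

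In the integrated stress response, kinases that sense unfolded protein, amino acid shortage, double-stranded RNA or haem shortage phosphorylate the initiation factor eIF2α. Protein synthesis then slows in general, while the mRNA of the transcription factor ATF4 is translated more, so that the Atf4 mRNA level alone does not measure ATF4 protein. ATF4 pairs with other leucine zipper proteins, often of the C/EBP family, on composite sites called CARE (C/EBP-ATF response elements) and switches on genes of amino acid supply, redox balance, cell death and feedback. In fat, the response has been studied mainly under nutrient excess and mitochondrial or endoplasmic reticulum stress.

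Because a composite ATF4 site has a known core, the 250 bases before each annotated start were searched on both strands for TGATGNAA, where N is any base. It stood before 4 of the 10 genes, namely Atf3, Asns, Chac1 and Slc7a11, and before 3.45% of all 32851 RefSeq promoters. The sequences below show these matches in capitals, 5′ to 3′ on the strand of the gene, as RefSeq gives them for GRCm38.p6, and Slc7a11 is the one member with a pair of them. The full 250 bases are given for Atf3 and Slc7a11, the members with the largest differences between the groups. The GENCODE genes of Atf3, Asns, Chac1, Slc7a11, Ddit3, Sesn2 and Psat1 reach further upstream than the RefSeq starts used here. The printed matches of Atf3 and Asns lie within their GENCODE genes. The lines for Asns and Chac1 hold the match with its neighbours.
Atf3, chr1:191183334-191183583, minus strand: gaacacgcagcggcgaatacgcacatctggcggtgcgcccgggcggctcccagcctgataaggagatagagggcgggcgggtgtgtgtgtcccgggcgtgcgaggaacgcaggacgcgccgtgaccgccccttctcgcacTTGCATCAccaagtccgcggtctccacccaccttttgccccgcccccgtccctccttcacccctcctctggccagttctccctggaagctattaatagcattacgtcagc
Slc7a11, chr3:50443614-50443863, minus strand: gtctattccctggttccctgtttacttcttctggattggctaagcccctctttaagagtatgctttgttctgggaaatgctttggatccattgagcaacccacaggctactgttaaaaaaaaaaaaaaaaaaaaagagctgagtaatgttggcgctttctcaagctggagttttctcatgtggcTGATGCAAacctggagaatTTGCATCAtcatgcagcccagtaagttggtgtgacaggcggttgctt
Asns, chr6:7693214-7693243, minus strand: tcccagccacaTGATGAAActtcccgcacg
Chac1, chr2:119351038-119351067, plus strand: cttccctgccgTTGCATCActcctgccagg

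A further pair of motifs was searched in the same windows because other leucine zipper factors bind them. The full cAMP response element TGACGTCA, a site of CREB and ATF proteins, stood before Ppp1r15a alone among the 10 genes and in 1.55% of all promoters. The AP-1 element TGANTCA, a site of FOS and JUN proteins, stood before Ddit3 alone and in 6.75% of all promoters. The matches are again in capitals, and no searched motif overlapped another one of a different kind. A match is a description and not a shown binding site, and no match means only that these letters are not in this window. Psat1 has a pair of RefSeq starts, and neither window held any of the 3 motifs, nor did those of Atf4, Trib3 and Sesn2.
Ddit3, chr10:127290543-127290568, plus strand: cgcgcgcaTGACTCActcacctcctc
Ppp1r15a, chr7:45526269-45526291, minus strand: cgcctctccggTGACGTCAgcac

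Before the members are compared, the libraries need a description. Replicate numbers follow the record order, so control replicate 2 is the library titled HF_7690_eWAT, and total counts were 22813206 to 25441746 in knockouts and 20108185 to 27225533 in controls. That library had a liver profile. Alb, the hepatocyte gene for serum albumin, had 4.02 to 654 CPM in knockouts, against 148656 CPM in that library and 7.38 and 3879 CPM in the other controls. Adipoq, the adipocyte gene for adiponectin, had 817 to 2614 CPM in knockouts, against 11.2 CPM in that library and 3649 and 1719 CPM in the other controls. CPM here are library-size-scaled counts with TMM factors, and edgeR fold changes between the groups are given with all 6 libraries and without control replicate 2. Pdcd1 had 19, 19 and 5 counts in knockouts and 13, 0 and 0 counts in controls, which in whole tissue also reflect T cells and do not check the labels. Mitochondrial genes took 2.64% to 3.89% of counts in knockouts and 5.45% to 9.08% in controls. Whether every library is from a separate animal is not stated in the labels, so p-values cover the spread among these libraries, which may be technical.

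Among the regulators, Atf3 and Ddit3 had knockout levels that all exceeded those of the controls, while Atf4 itself overlapped between the groups, and none of the 3 passed the edgeR test. In whole tissue, fewer cells of a type and less RNA per cell cannot be told apart. Atf4 (chr15:80255184-80257541, plus strand) encodes the central transcription factor of the response. It had 95.1, 106 and 119.5 CPM in knockouts, against 161, 142 and 84.0 CPM in controls. The knockouts lay close together, between the lowest control and the other controls, of which the liver-profile library was not an extreme. By edgeR the log2 fold change was −0.27 ± 0.35 (SE; edgeR adjusted p = 0.858) with all 6 libraries, and −0.19 ± 0.34 (adjusted p = 0.886) without control replicate 2.

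Atf3 (chr1:191170296-191218039, minus strand), a factor of the same leucine zipper family that is induced by many stresses and by serum, differed most. It had 111, 129 and 31.6 CPM in knockouts, against 4.38, 1.79 and 25.1 CPM in controls. All knockouts stood above all controls, but knockout replicate 3 lay near control replicate 3 and far from the other knockouts. The titles of these 2 libraries carry numbers of one range and those of the other libraries do not, though the labels do not call this a batch. Knockout replicates 1 and 2 share a further range, and control replicates 1 and 2 share another. Among those libraries, number range and genotype cannot be told apart. In the range that holds both genotypes, Atf3 was 31.6 CPM in the knockout and 25.1 CPM in the control. The other libraries had 111 and 129 CPM in knockouts and 4.38 and 1.79 CPM in controls. With a term for that range against all other libraries, the log2 fold change was 3.94 (edgeR adjusted p = 0.789). Such a term cannot adjust for the ranges held by a single genotype. The means were 90.7 ± 52.0 CPM in knockouts and 10.4 ± 12.8 CPM in controls (SD, n = 3 each). Its log2 fold change was 3.12 ± 1.09 (SE; edgeR adjusted p = 0.560, unadjusted 0.0274), and 2.65 ± 0.95 (adjusted p = 0.540) without control replicate 2. Without control replicate 3, the highest control, it was 4.86. DESeq2 gave an adjusted p of 0.0570 with all 6 libraries and 0.0349 without control replicate 2, so that Atf3 passed the threshold of 0.05 in that tool and that set of libraries only.

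Ddit3 encodes CHOP, the factor that links prolonged stress to cell death. It had 19.5, 18.5 and 18.4 CPM in knockouts, against 15.7, 11.4 and 9.64 CPM in controls. The groups did not overlap, and the knockouts spread less (18.8 ± 0.62 CPM) than the controls (12.3 ± 3.11 CPM, SD, n = 3 each). The log2 fold change was 0.62 ± 0.30 (SE; edgeR adjusted p = 0.567), and 0.58 ± 0.30 (adjusted p = 0.597) without control replicate 2. These values belong to the longer of both Ddit3 identifiers, ENSMUSG00000025408 (chr10:127290774-127296288, plus strand). The other, ENSMUSG00000116429, had 0 counts in all 6 libraries, and its 105 exon bases all lie within the first. Ddit3 also shares 68 exon bases with Mars on the opposite strand, and whether counting used the strand is not stated, so these reads cannot be told apart. Ddit3 lies 10.01 Mb from Lyz2, the locus that carries Cre in the knockouts.

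**Figure D1:**
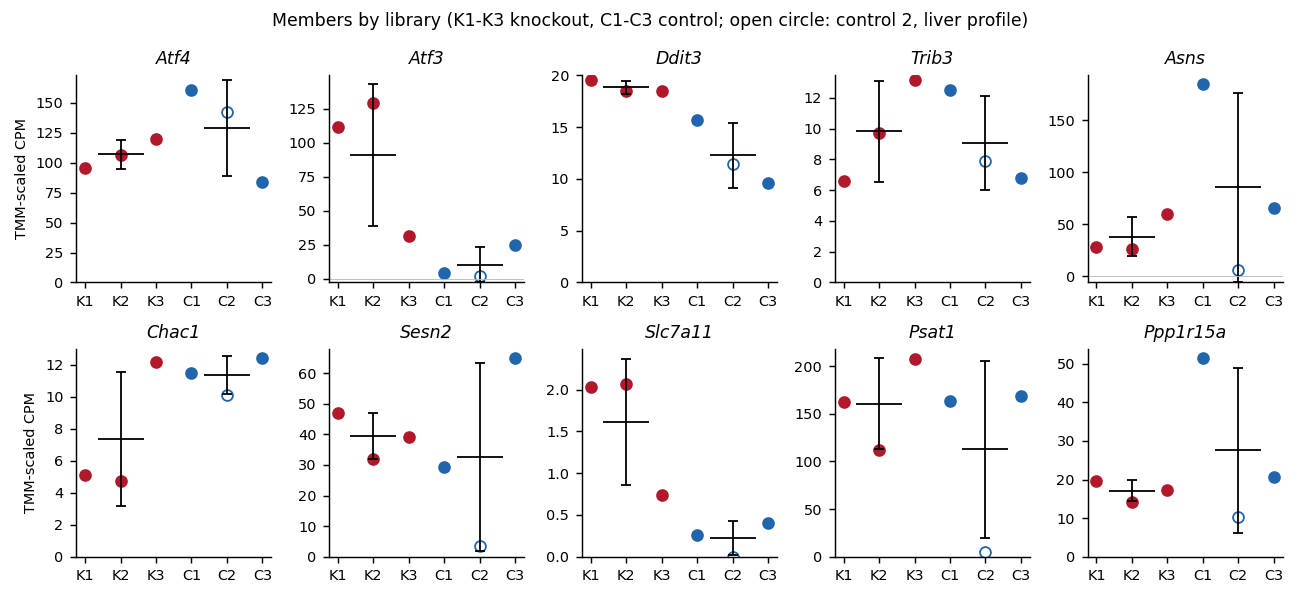
Level of each of the 10 genes in each library, in TMM-scaled CPM on a linear axis, with knockouts K1 to K3 in red left of controls C1 to C3 in blue, the open circle marking the liver-profile library, and lines with bars for the group mean ± SD (n = 3). Atf3, Ddit3 and Slc7a11 are the 3 genes whose knockouts all lie above the controls, and Psat1 at 5.37 CPM and Sesn2 at 3.67 CPM show how far control replicate 2 lies from the others.

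The feedback genes did not move together. Trib3 (chr2:152337422-152344032, minus strand) encodes a pseudokinase that binds ATF4 and dampens its activity. It had 6.57, 9.72 and 13.2 CPM in knockouts, against 12.5, 7.87 and 6.82 CPM in controls, so the groups covered the same range. Its log2 fold change was 0.11 ± 0.43 (SE; edgeR adjusted p = 0.964), and 0.03 ± 0.43 (adjusted p = 0.987) without control replicate 2. Ppp1r15a (chr7:45522916-45526268, minus strand) encodes GADD34, the phosphatase subunit that removes the phosphate from eIF2α and lets translation resume. It had 19.7, 14.2 and 17.4 CPM in knockouts, against 51.6, 10.4 and 20.8 CPM in controls. Only control replicate 1 stood well apart, and the liver-profile library was the lowest of the 6. By edgeR the log2 fold change was −0.69 ± 0.59 (SE; edgeR adjusted p = 0.756), and −1.08 ± 0.41 (adjusted p = 0.545, unadjusted 0.0400) without control replicate 2. Without control replicate 1 it was 0.14, with the liver-profile library still among the controls. Ppp1r15a shares 12 exon bases with Tulp2 on the opposite strand.

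The amino acid enzymes depended on single controls. Asns (chr6:7675169-7693254, minus strand) makes asparagine and is among the best known ATF4 targets. It had 28.3, 26.3 and 59.9 CPM in knockouts, against 184, 6.17 and 65.5 CPM in controls. Each knockout lay below each of the fat-profile controls, and above the liver-profile control. Its log2 fold change was −1.16 ± 1.05 (SE; edgeR adjusted p = 0.774), and −1.71 ± 0.56 (adjusted p = 0.540, unadjusted 0.0217) without control replicate 2. Without control replicate 1 it was 0.09, and that library had 4924 Asns counts. The 5 erythroid genes, mostly of hemoglobin, also stood apart there, at 1635, 582 and 2849 CPM in knockouts and 20469, 3435 and 1460 CPM in controls, and their part in the Asns and Ppp1r15a values was not tested. Psat1 (chr19:15904678-15947337, minus strand) carries out a step of serine synthesis. It had 162, 112 and 207 CPM in knockouts, against 163, 5.37 and 169 CPM in controls. Apart from the liver-profile library the groups overlapped, and the log2 fold change was 0.51 ± 1.05 (SE; edgeR adjusted p = 0.926) with all 6 libraries and −0.05 ± 0.31 (adjusted p = 0.971) without control replicate 2.

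Slc7a11 was the member of lowest level and the other gene with no overlap upward. Slc7a11 (chr3:49892526-50443614, minus strand) encodes xCT, which imports cystine in exchange for glutamate and so feeds glutathione synthesis. It had 62, 59 and 19 counts in knockouts, against 7, 0 and 11 counts in controls, or 2.03, 2.07 and 0.737 CPM in knockouts, against 0.262, 0 and 0.403 CPM in controls. The order of the 6 libraries was the same as for Atf3, with knockout replicate 3 the lowest knockout and control replicate 3 the highest control. Between these 2 libraries of one title number range it was 0.737 CPM in the knockout and 0.403 CPM in the control, and with that range as a term the log2 fold change was 2.75 (edgeR adjusted p = 0.789). A count of 0 in control replicate 2 allows up to 0.268 CPM, the level of 3 counts there, and this limit covers counting error only. The log2 fold change was 2.73 ± 1.04 (SE; edgeR adjusted p = 0.560, unadjusted 0.0371), and 2.28 ± 0.76 (adjusted p = 0.540, unadjusted 0.0238) without control replicate 2. DESeq2 gave adjusted p-values of 0.109 with all 6 libraries and 0.112 without control replicate 2.

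Chac1 and Sesn2 cover glutathione breakdown and growth control. Chac1 (chr2:119351229-119354381, plus strand) encodes an enzyme that degrades glutathione. It had 5.10, 4.73 and 12.2 CPM in knockouts, against 11.5, 10.1 and 12.4 CPM in controls. Knockout replicates 1 and 2 lay below every control, and knockout replicate 3 fell among them. By edgeR the log2 fold change was −0.63 ± 0.47 (SE; edgeR adjusted p = 0.714), and −0.70 ± 0.47 (adjusted p = 0.684) without control replicate 2. Sesn2 (chr4:132492032-132510501, minus strand) encodes sestrin 2, a leucine sensor that restrains the growth kinase complex mTORC1. It had 47.1, 31.9 and 39.1 CPM in knockouts, against 29.4, 3.67 and 64.8 CPM in controls. The knockouts lay between the fat-profile controls, and the log2 fold change was 0.27 ± 0.87 (SE; edgeR adjusted p = 0.957) with all 6 libraries and −0.25 ± 0.37 (adjusted p = 0.861) without control replicate 2.

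**Figure D2:**
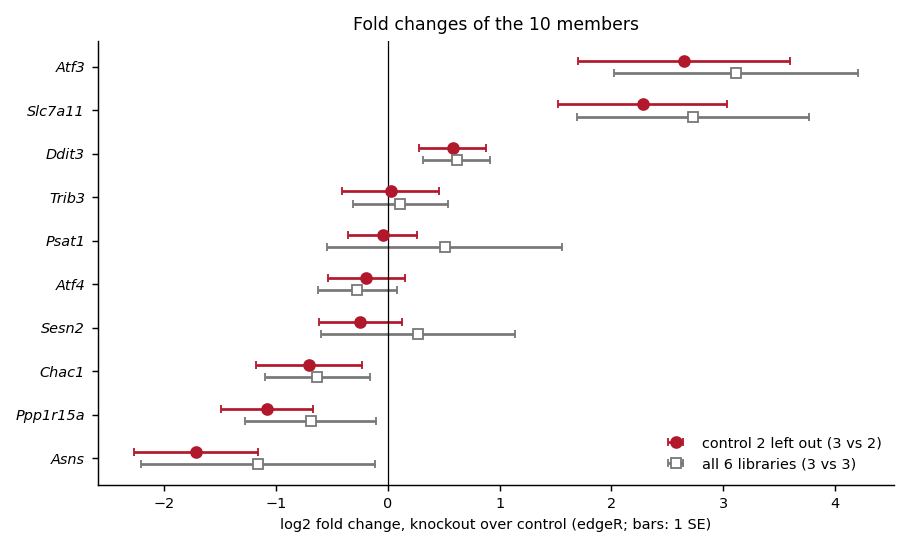
Log2 fold change, knockout over control, of each of the 10 genes by edgeR, with bars of 1 SE; red circles leave out control replicate 2 and grey squares use all 6 libraries. Atf3 (2.65 and 3.12) and Slc7a11 (2.28 and 2.73) lie farthest right and Asns (−1.71 and −1.16) farthest left, while Psat1 and Sesn2 cross 0 between the fits.

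Over the whole table edgeR called 0 of 15928 genes (0%) with all 6 libraries and 0 of 16729 genes (0%) without control replicate 2, and so none of the 10 members. At an unadjusted p under 0.05 stood 2 of the 10 members, Atf3 and Slc7a11, against 8.65% of all genes tested. Without control replicate 2 there were 4, with Asns and Ppp1r15a lower in knockouts beside the same 2 higher, against 8.96% of all genes. Limma-voom also called 0 genes. DESeq2 called 1.42% of genes higher in knockouts and 1.7% lower with all 6 libraries, none of them a member. Without control replicate 2 it called 2.2% higher, among them Atf3. The groups did not overlap for 3 of 10 members higher in knockouts and 0 lower, against 9.54% and 5.61% of all genes tested. By sign, 6 of the 10 members were above 0 and the median log2 fold change was 0.19, against 47.95% and −0.03 for all genes. Without control replicate 2 it was 4 of 10 and −0.12, against 47.1% and −0.04.

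Since FPKM is a value per length, it allows the members to be ordered within a library. Atf4 ranked first or second of the 10 in all 6 libraries, and Slc7a11 ranked last in all 6. Atf3 covered the widest range of ranks, standing at ranks 1, 1 and 4 in knockouts and 9, 9 and 5 in controls. Its FPKM was 46.1, 55.0 and 12.8 in knockouts, against 1.77, 0.78 and 10.5 in controls, while Atf4 had 35.9, 41.3 and 44.3 in knockouts and 59.3, 56.5 and 31.9 in controls. Atf3 mRNA therefore stood above Atf4 mRNA per length in knockout replicates 1 and 2 and in no other library.

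The ratio of each target to Atf4 in the same library does not depend on how libraries are scaled. Ddit3 had 28.3%, 24.0% and 21.2% of the Atf4 FPKM in knockouts, against 13.4%, 11.1% and 15.8% in controls, with no overlap. Slc7a11 had 0.361%, 0.330% and 0.104% in knockouts, against 0.0276%, 0% and 0.0813% in controls, also with no overlap. Atf3 overlapped on this scale, at 128%, 133% and 29.0% in knockouts and 2.98%, 1.38% and 32.7% in controls. Thus 2 of the other 9 members were higher relative to Atf4 in each knockout and 0 lower, against 6.35% and 2.66% of the 15927 other genes tested. For Asns the ratio was 25.7%, 21.4% and 43.2% in knockouts, against 98.8%, 3.74% and 67.2% in controls. Asns stood closer to Atf4 in both fat-profile controls than in any knockout.

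**Figure D3:**
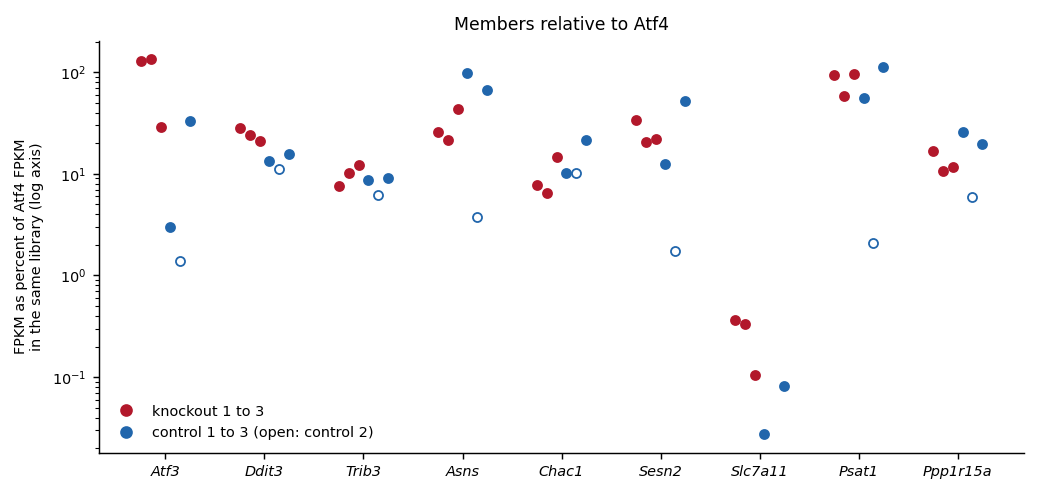
FPKM of 9 members as a percentage of Atf4 FPKM in the same library, on a log axis, with knockouts in red left of controls in blue and control replicate 2 open; the Slc7a11 value of 0 in control replicate 2 cannot be drawn on this axis. Ddit3 (21.2% to 28.3% in knockouts, 11.1% to 15.8% in controls) and Slc7a11 separate the groups, and the others overlap.

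The macrophage, fibroblast, T cell and B cell sums, like Atf3 and Slc7a11, were highest in knockout replicates 1 and 2. None of these sums ordered all 6 libraries as Atf3 did, and the hepatocyte, adipocyte and immediate early sums had other libraries on top. The 16 hepatocyte genes summed to 210.2 to 2272 CPM in knockouts and 8205 to 260093 CPM in controls, with Fga, Fgb, Fgg, Apoh and Cps1 at 0 in some libraries. Without Cyp2e1 and Trf, left out after their values were seen, the sums overlapped, at 9.51, 1249 and 98.5 CPM in knockouts and 10.9, 241655 and 7271 CPM in controls. Of the 8205 CPM in control replicate 1, Cyp2e1 alone made up 8089 CPM. The 14 macrophage genes summed to 2934, 3432 and 1068 CPM in knockouts, against 1046, 478 and 740 CPM in controls, with 8 of 14 higher without overlap and none at 0. Adgre1, which encodes the macrophage marker F4/80, had 268, 379 and 49.3 CPM in knockouts, against 28.9, 12.1 and 33.5 CPM in controls. Knockout replicate 3 was the lowest knockout for Atf3, Slc7a11 and Adgre1, and also for the fibroblast, immediate early, T cell and B cell sums. The 6 fibroblast genes summed to 2255, 5189 and 1414 CPM in knockouts, against 1121, 300 and 1609 CPM in controls, with 2 of 6 higher without overlap and none at 0.

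The 8 immediate early genes, which rise within minutes of cell stimulation or tissue handling, summed to 1217, 518 and 331 CPM in knockouts, against 237, 169 and 962 CPM in controls. None of them separated the groups, Fosb was at 0 in control replicate 2, and the highest control was control replicate 3, as it was for Atf3. Fos had 232, 88.2 and 27.9 CPM in knockouts, against 21.9, 1.97 and 90.7 CPM in controls. The 6 T cell genes summed to 21.5 to 26.05 CPM in knockouts and 7.33 to 7.64 CPM in controls. The 14 adipocyte genes summed to 25880 to 59540 CPM in knockouts and 1417 to 66716 CPM in controls. What these cells and signals add to the members' values was not tested.

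**Figure D4:**
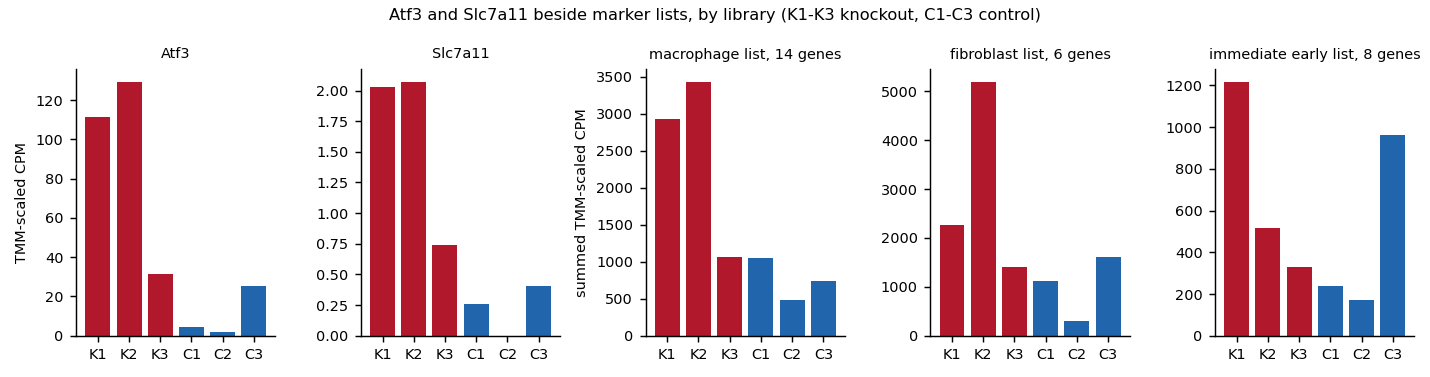
Atf3 and Slc7a11 in TMM-scaled CPM, and the summed TMM-scaled CPM of the macrophage, fibroblast and immediate early lists, as bars from 0 for knockouts K1 to K3 (red) and controls C1 to C3 (blue). Knockout replicates 1 and 2 are the highest bars for both genes, the macrophage list (2934 and 3432 CPM) and the fibroblast list (2255 and 5189 CPM). For the immediate early list, control replicate 3 (962 CPM) is the second highest.

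The other genes of the response were taken from 5 lists with 59 genes, of which 58 could be tested. EdgeR called 0 of them, with 5 at an unadjusted p under 0.05 with all 6 libraries, all lower in knockouts, and 2 without control replicate 2. With all 6 libraries the share of the 58 was close to the 8.65% of all genes, and without control replicate 2 it was below 8.96%. Over all genes tested with all 6 libraries, 680 were lower and 697 higher at that p. The 5 were Cbs, Cth, Got1, Slc6a9 and Fgf21, each highest in the liver-profile library. Above 0 stood 27 of 58 at a median of −0.05 on the log2 scale, and 28 of 58 with −0.02 without control replicate 2. In 2 genes, Cars and Lars, each knockout lay above each control (3.45%), and in 3 genes, Slc6a9, Fgf21 and Vegfa, below (5.17%). Both shares lie below those of all genes, 9.54% and 5.61%.

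Upstream of ATF4, 3 of the 12 genes of eIF2 phosphorylation and exchange were above 0, and their median was −0.20 on the log2 scale (−0.07 without control replicate 2). The 3 of smallest p were Ppp1r15b, the constitutive partner of the eIF2α phosphatase, at −0.67, and the exchange factor subunits Eif2b4 at −0.55 and Eif2b1 at −0.38. Without control replicate 2 they stood at −0.15, −0.02 and −0.30, in the same order. None of the 3 passed the edgeR test.

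The 10 further amino acid synthesis genes had −0.63 as their median log2 fold change with all 6 libraries and 0.04 without control replicate 2. Cbs, which starts the conversion of homocysteine to cysteine, had 3.60, 7.26 and 10.8 CPM in knockouts, against 6.55, 473 and 35.3 CPM in controls. Cth, the next enzyme of that path, had 12.4, 10.5 and 14.4 CPM in knockouts, against 5.73, 725 and 31.5 CPM in controls. Both are abundant in liver, and the liver-profile library was by far the highest for both. Control replicate 3 was the next highest for both and stays in the fit without control replicate 2. It had 3879 CPM of Alb, against 7.38 CPM in control replicate 1, and what liver RNA adds there was not tested. The log2 fold change of Cbs was −4.57 with all 6 libraries and −1.52 without control replicate 2, and that of Cth was −4.35 and −0.57. DESeq2 called both with all 6 libraries (adjusted p = 0.0152 for Cbs and 0.0366 for Cth) and neither without control replicate 2. Got1, an aspartate aminotransferase, had −3.88 and −0.34 by edgeR in the same pair of fits.

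Of the 7 amino acid transporters tested, 3 were above 0 with a median of −0.004 (2 and −0.40 without control replicate 2). The glycine transporter Slc6a9 had 1.01, 1.09 and 1.05 CPM in knockouts, against 1.87, 8.59 and 2.64 CPM in controls. Every knockout lay below every control, with a log2 fold change of −2.04 (edgeR adjusted p = 0.560) and −1.09 (0.563) without control replicate 2. The neutral amino acid carriers Slc1a4 and Slc38a2 had −0.41 and −0.52 with all 6 libraries and −0.64 and 0.14 without control replicate 2. Of the 13 aminoacyl-tRNA synthetases, which charge tRNAs, 8 were above 0 with a median of 0.04 (9 and 0.11 without control replicate 2). Cars had 30.0, 28.5 and 26.001 CPM in knockouts, against 21.6, 22.2 and 22.9 CPM in controls, a small but separated difference of 0.34 on the log2 scale (edgeR adjusted p = 0.682). Vars had 0.41 and Mars, the gene that overlaps Ddit3, −0.40. Without control replicate 2 Cars stood at 0.35, Vars at 0.36 and Mars at −0.18.

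Among the 16 stress regulators and secreted targets, 8 were above 0 in both sets of libraries. Fgf21, a stress hormone of liver and fat, had 27, 19 and 20 counts in knockouts, against 69, 96 and 40 counts in controls. Its levels were 0.882, 0.666 and 0.776 CPM in knockouts, against 2.58, 8.59 and 1.47 CPM in controls. Each knockout lay below each control, with a log2 fold change of −2.42 ± 0.78 (SE; edgeR adjusted p = 0.560), and −1.38 ± 0.54 (adjusted p = 0.548) without control replicate 2. Vegfa, the blood vessel growth factor, had 90.4, 59.3 and 111 CPM in knockouts, against 141, 144 and 131 CPM in controls (log2 fold change −0.67, edgeR adjusted p = 0.575, and −0.64 without control replicate 2).

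The stress hormone Gdf15 had 9.22, 12.4 and 3.34 CPM in knockouts, against 0.599, 48.0 and 6.01 CPM in controls. Its log2 fold change was −1.12 with all 6 libraries and 1.36 without control replicate 2, the highest library. Cebpb, a binding partner of ATF4, had 168, 115 and 154 CPM in knockouts, against 50.6, 238 and 70.5 CPM in controls. The liver-profile library was again the highest of the 6, and every knockout stood above both fat-profile controls. The log2 fold change of Cebpb was 0.28 ± 0.63 (SE; edgeR adjusted p = 0.932), and 1.27 ± 0.29 (edgeR adjusted p = 0.540, DESeq2 adjusted p = 0.0107) without control replicate 2. Herpud1, an endoplasmic reticulum stress gene, had −2.00 and −0.19 in the same pair of fits.

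**Figure D5:**
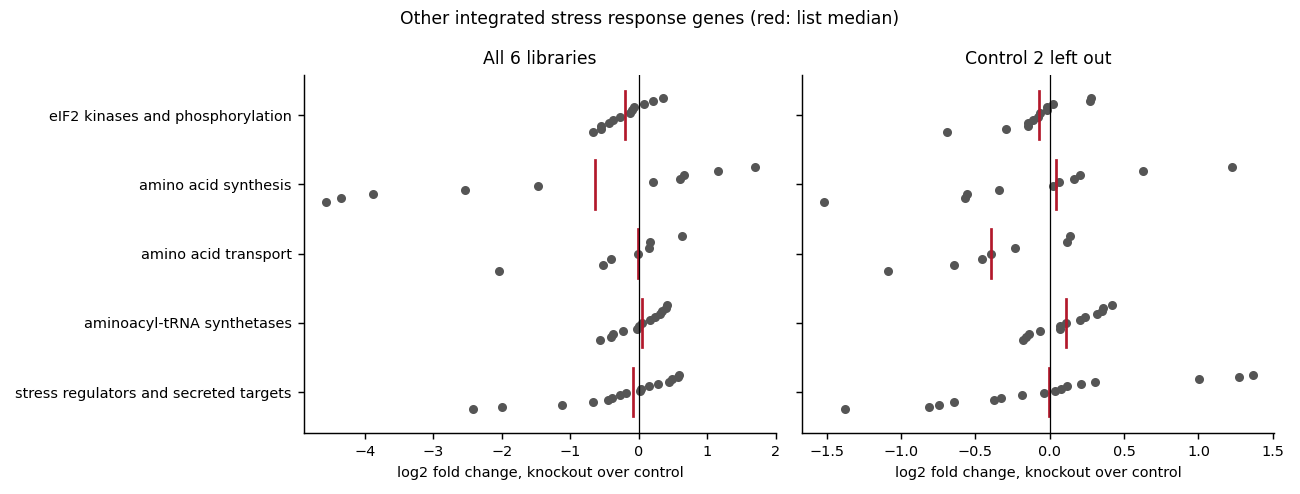
Log2 fold change, knockout over control, of each tested gene of 5 further lists of the response (points) with the list median (red line), for all 6 libraries at left and without control replicate 2 at right, on axes of different range. The spread of the amino acid synthesis list narrows without control replicate 2, where its median is 0.04 in place of −0.63.

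The genes nearest in pattern to the 3 regulators were found by the distance between gene-centred log2(CPM + 1) values over the 6 libraries. Nearest to Atf4 were Rpl15, a ribosomal protein gene, at 0.143, then Lrrc15 and Tpte, which stay under 2 CPM in every library. At such levels the added 1 compresses differences, as for Lrrc15 with 0.183 to 1.54 CPM. Nearest to Atf3 was Trdn, which encodes the muscle protein triadin, at 0.578, with 36.0, 37.3 and 9.47 CPM in knockouts, against 0.150, 0 and 6.82 CPM in controls. Next to Atf3 came Cpxm1 at 0.958 and the collagen gene Col6a3 at 1.07. Nearest to Ddit3 were Stard3nl at 0.234, the endoplasmic reticulum protein gene Erp29 at 0.266 and Mis18a at 0.271. Each distance rests on 6 libraries that share their scaling, and describes likeness of pattern alone.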

How the data were processed

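RNA sequencing covered 6 libraries, 3 per group. The authors deposited raw counts per gene and library and a table of FPKM values, counts per length and depth. Per the submitters' processing notes, reads passed through fastp, featureCounts 1.5.0-p3, StringTie 1.3.3b and HISAT2 2.0.5, listed in no order, on mm10. Strandedness, counting options and annotation version were not stated there.

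The members and gene lists were chosen with earlier results of these data known. The main test was edgeR 4.0.16 in R 4.3.3 (quasi-likelihood, robust, filterByExpr by group, TMM) and p-values were adjusted by Benjamini-Hochberg over all genes, with 0.05 as threshold and standard errors from the F statistic. DESeq2 1.42.0, limma 3.58.1 (voom), other filters and scalings, FPKM with pseudocounts of 1 and 0.1, the title number as a term and left-out libraries were alternatives. The tests were checked on simulated data. With 3 against 3 the smallest exact two-sided permutation p is 0.1. Named were all members, up to 3 genes of smallest p per list, any list gene called by edgeR or DESeq2, Fgf21, Gdf15 and the 3 nearest patterns of each regulator. Lars was added after its values were seen, as 1 of 5 genes without overlap. Symbols matched 54409 of 54532 identifiers. Coordinates are GENCODE vM21 on GRCm38, the assembly of mm10. Promoters are RefSeq, GRCm38.p6. Figures used matplotlib 3.10.9. Marker lists not named in the results are not reported here.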

Additional observations from a re-analysis of the deposited data

How the results depend on the processing

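EdgeR and limma-voom called 0 genes under each alternative run, whereas DESeq2 called 530 genes with all 6, and 482 once control replicate 2 was left out. Of the members DESeq2 called 1 without control replicate 2, Atf3 (log2 fold change 2.64), and of the wider lists 2 with all 6 libraries, Cbs and Cth (−4.61 and −4.39), and 1 without control replicate 2, Cebpb. Over 16 alternatives, 148 of 159 member values kept direction and side of the threshold, 10 reversed and 1 became a call. For the 17 wider genes named by rule, 9 alternatives were run gene by gene (DESeq2 with all 6 libraries, FPKM and left-out libraries). Of 151 values, 145 kept both, 4 reversed and 2 became calls. Got1 and Herpud1 had no DESeq2 value with all 6 libraries. With each library left out in turn, log2 fold changes ran from −0.15 to 0.42 for Trib3 (−0.054 without control replicate 3), −1.71 to 0.090 for Asns, −0.25 to 1.25 for Sesn2, −0.046 to 0.93 for Psat1 and −1.08 to 0.14 for Ppp1r15a. They ran from −0.86 to 0.14 for Slc38a2, −1.69 to 1.36 for Gdf15 and −0.079 to 1.27 for Cebpb. Without controls 2 and 3 Trib3 stood at −0.34 and Psat1 at −0.010. DESeq2 without control replicate 2 gave −0.25 for Sesn2 and −0.040 for Psat1, and FPKM with a pseudocount of 0.1 gave 0.25 for Gdf15. The cause of these reversals was not tested. Atf3 kept its sign at 2.65 to 4.86, Slc7a11 at 2.28 to 3.37, Ddit3 at 0.47 to 0.84, Atf4 at −0.50 to −0.077 and Chac1 at −1.20 (without knockout replicate 3) to −0.39 with each library left out in turn. On FPKM, where a pseudocount shrinks low genes, Slc7a11 stood at 0.12 with a pseudocount of 1 and 0.81 with 0.1. Slc7a11 was too low to test where 1 CPM in 3 libraries was required, and rested on 0 to 62 counts a library. No paired analysis was possible because the labels give no replicate numbers shared between groups. The title number term set the range of knockout replicate 3 and control replicate 3 against all other libraries. It could not adjust for the ranges held by a single genotype, and edgeR called 0 genes with or without it.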
